A study of Rattus norvegicus with 20 samples.

Results

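Myelin is the layered membrane that oligodendrocytes wrap around axons of the central nervous system. Its compact layers are held together on the cytoplasmic side by small basic proteins, its outermost and innermost surfaces carry adhesion proteins of the immunoglobulin family, and its cytoplasm-filled channels hold a separate group of enzymes and cytoskeletal proteins. As an oligodendrocyte matures it switches from the genes of a dividing precursor to those of myelin, under transcription factors that include Sox10 and Myrf. The bushy cell axons of the cochlear nucleus are myelinated in the weeks after birth.

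The levels of 9 such genes were followed in samples of globular bushy cells, the neurons of the rat ventral cochlear nucleus whose axons end as the calyx of Held. The members are all probe sets that the platform annotation assigns to 1 gene alone, where that gene is Mbp, Mobp, Mal, Mog, Mag, Cnp, Opalin, Ermn or Plekhb1. This gave 16 probe sets of 9 genes, out of 31042 probe sets and 14217 genes. All animals were Sprague Dawley rats that had received cholera toxin B, a retrograde tracer, 24 hours before the brain was taken, in the medial nucleus of the trapezoid body of the other side. The groups were 6 rats at postnatal day 3 (P3), when calyces have newly formed, 9 rats at P8, with juvenile calyces shortly before hearing begins, and 5 rats at P21, with mature ones. From each rat 200 labelled cells were cut out of 12 µm sections by laser microdissection, and their RNA was amplified over 2 rounds and read on 1 array.

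A section of tissue cut around a neuron can also hold parts of other cells. In such samples more cells of a type and more RNA per cell cannot be told apart, and how much of the signal came from oligodendrocytes next to the bushy cells was not tested. Levels are log2(intensity + 1), where intensity is the deposited linear brightness of a probe set, and levels of different probe sets are not compared with each other. Changes are differences of age means on this scale, given with their standard errors. A probe set was called where its adjusted p from limma was under 0.05 over all 21805 probe sets tested.

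Within P8, replicates 5 to 9 were unlike all other arrays. The array median of intensity was 58.9 to 67.5 on them, against 23.8 to 32.5 for the remaining 15, and their mean correlation with P8 replicates 1 to 4 across probe sets was 0.657, against 0.918 among those 4 arrays. P8 below therefore means replicates 1 to 4 unless replicates 5 to 9 are named, and those are given apart. The GAPDH 3' minus 5' control difference, which grows as amplified RNA gets shorter, averaged 2.91 ± 0.27 at P3 (SD, n = 6), 3.27 ± 0.42 at P8 (SD, n = 4) and 3.99 ± 0.66 at P21 (SD, n = 5), so it moved with age and with the 9 genes. The same difference of the actin controls averaged 4.70 ± 0.30 at P3, 4.30 ± 0.19 at P8 and 4.32 ± 0.68 at P21 (SD, same arrays) and did not rise with age. The part of RNA length in the changes was not tested beyond the GAPDH covariate. The mean level of 11 genes typical of bushy neurons was 6.82 to 7.55 on P3 arrays. It was 8.15 to 9.73 on P8 arrays and 9.92 to 10.38 on P21 arrays. All 11 passed the filter on dim probe sets, above log2 4 in at least 5 of the 15 arrays, as 21805 of 31042 probe sets did. These values do not test which cells the samples held.

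The regulatory sequence in front of these genes is shown first, because the members moved together with age. RefSeq promoter windows of build GRCr8, from 250 bases before to 50 bases after an annotated start, matched 7 of the 9 genes, with 2 windows for Mbp. Ermn and Mog had no entry. Printed below are the 4 windows that held both kinds of motif searched or, for Mobp, many copies of 1 of them. Capitals mark matches on either strand to CTGGCAC, a core recognised by Myrf, or to ACAAAG, a core recognised by Sox10 and other Sox factors; no 2 matches overlapped. Positions count from 1 at the 5' end of the window.
Mag, chr1:95290995-95291294, minus strand: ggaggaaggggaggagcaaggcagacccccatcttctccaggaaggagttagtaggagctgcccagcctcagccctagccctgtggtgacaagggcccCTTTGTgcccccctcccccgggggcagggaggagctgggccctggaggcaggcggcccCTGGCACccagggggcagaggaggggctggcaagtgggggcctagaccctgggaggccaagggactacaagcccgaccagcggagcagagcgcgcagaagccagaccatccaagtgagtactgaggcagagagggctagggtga
Cnp, chr10:86011254-86011553, plus strand: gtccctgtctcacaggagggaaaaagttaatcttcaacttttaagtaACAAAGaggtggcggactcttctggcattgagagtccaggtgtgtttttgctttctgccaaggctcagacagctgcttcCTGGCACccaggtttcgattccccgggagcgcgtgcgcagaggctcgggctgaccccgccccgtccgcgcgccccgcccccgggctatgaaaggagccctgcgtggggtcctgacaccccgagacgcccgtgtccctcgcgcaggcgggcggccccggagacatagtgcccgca
Opalin, chr1:249858141-249858440, minus strand: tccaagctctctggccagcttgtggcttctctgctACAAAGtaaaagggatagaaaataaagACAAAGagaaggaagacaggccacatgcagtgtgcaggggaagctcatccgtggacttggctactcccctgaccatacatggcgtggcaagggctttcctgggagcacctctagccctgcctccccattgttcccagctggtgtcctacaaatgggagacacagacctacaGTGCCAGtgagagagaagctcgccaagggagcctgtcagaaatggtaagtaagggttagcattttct
Mobp, chr8:128746982-128747281, plus strand: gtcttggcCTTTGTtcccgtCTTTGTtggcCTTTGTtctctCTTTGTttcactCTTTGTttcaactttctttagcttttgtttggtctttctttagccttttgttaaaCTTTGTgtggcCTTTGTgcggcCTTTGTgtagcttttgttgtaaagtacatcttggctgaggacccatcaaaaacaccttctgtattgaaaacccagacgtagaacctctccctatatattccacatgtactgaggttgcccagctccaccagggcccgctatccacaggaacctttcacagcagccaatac

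CTGGCAC was found once each in the windows of Mag, Cnp, Opalin and Mal, 4 of 7 genes, while 4.75% of 33469 rat promoter windows of the same length hold it on either strand. The related core CTGGTAC was in none of the members' windows and in 2.16% of all. ACAAAG was in the windows of 5 of 7 genes, Mbp through 1 of its 2 windows, against 18.8% of all windows. The Mobp window held 8 copies, all on the minus strand and within a run of short repeats. Only 0.00896% of windows held as many. In Mag, Cnp and Mal the letters TGGCACCCAGG occurred in the same orientation, a stretch singled out after the windows had been seen and present on either strand in 19 windows of 33469. In Mal it lies apart from the CTGGCAC match, which is on the minus strand there. The E-box CAGCTG, searched as a core of Olig2, was in the windows of 3 of 7 genes, Mbp again through 1 of 2, and in 15.1% of all windows. These matches describe letters and say nothing of binding, and the windows of Plekhb1 and of 1 of the Mbp starts held none of the motifs.

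The level of every gene rose between P3 and P21. Taking for each gene its leading probe set, the one with the highest mean over the 15 arrays, all 9 were higher at P21 by 1.35 to 6.58, with a median of 4.01. Over all tested probe sets the median change was 0.03 and 18.6% were called higher. By P8 the level of 8 of the 9 was already higher than at P3 and that of none lower, where 6.98% of all probe sets were called higher and 7.8% lower, and between P8 and P21 that of 4 of the 9 rose, Mal, Mog, Ermn and Plekhb1, where 7.98% rose and 8% fell. For all 9 genes every P21 array lay above every P3 array, as 13.9% of all probe sets did. For 8 of the 9 every P8 array also lay above every P3 array (6.73% of all), and for Mal, Ermn and Plekhb1 every P21 array lay above every P8 array (7.03%). Of the 16 probe sets 15 passed the filter, 6 of them, among these the leading ones of Opalin and Ermn, with no P3 array above log2 4, so that the counts of calls describe these probe sets and lend no support of their own.

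**Figure D1:**
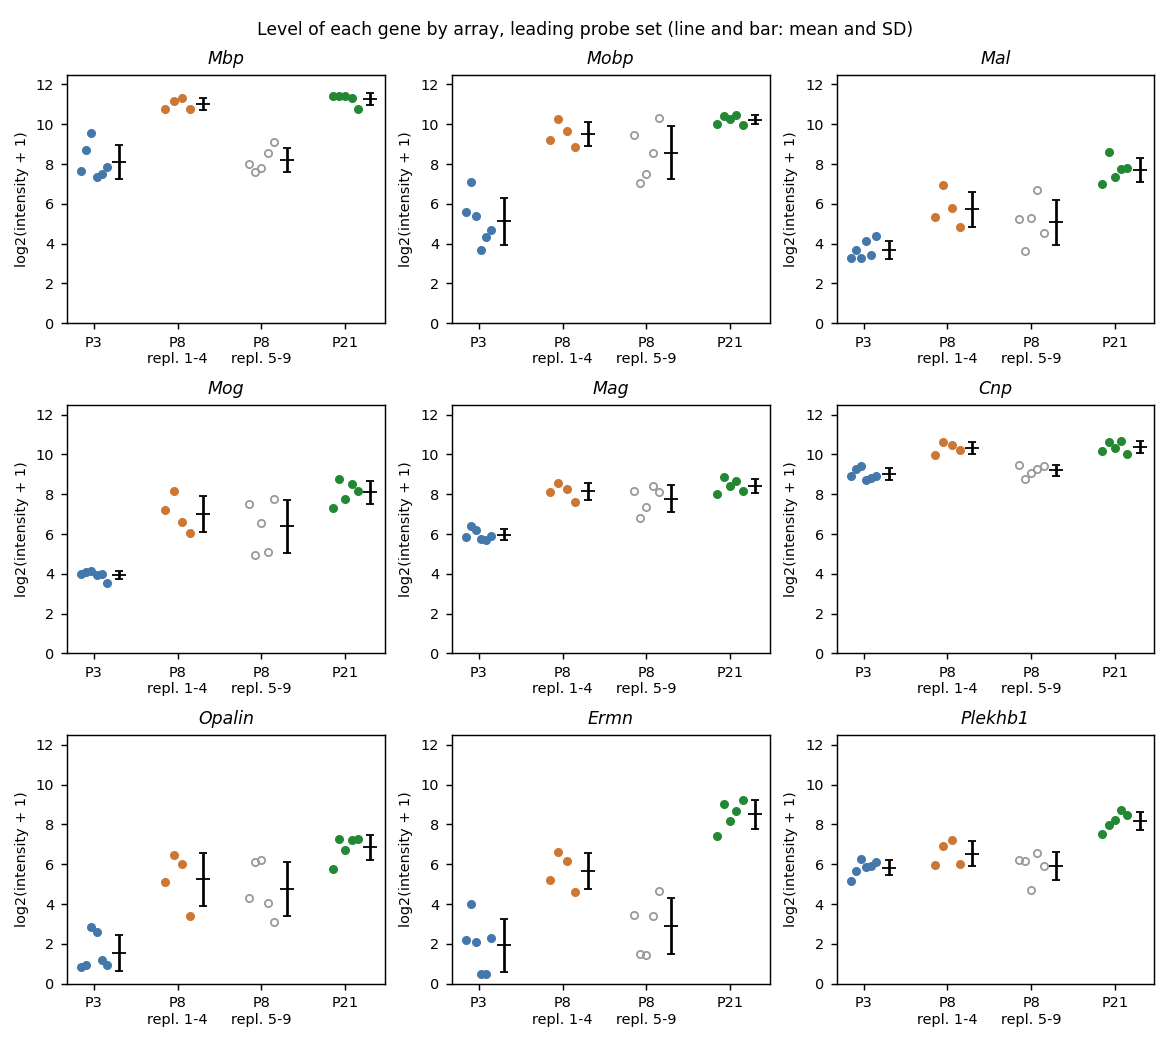
Level of the leading probe set of each gene, log2(intensity + 1), on each of the 20 arrays at P3, P8 and P21; points are arrays, open points are P8 replicates 5 to 9, and the line with its bar is the mean with the SD. In all 9 panels the P21 points lie above the P3 points, while P8 replicates 5 to 9 lie below P8 replicates 1 to 4 throughout for Mbp and Cnp.

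The genes of the basic proteins of the cytoplasmic face of compact myelin rose by P8. P8 replicates 5 to 9 differ from this for the leading Mbp probe set, whose mean on them was 8.22 ± 0.61 (SD, n = 5), against 8.10 ± 0.85 at P3 (SD, n = 6). With all 20 arrays its early change was 1.36 and was not called (adjusted p = 0.0761). The Mbp probe set 1387341_a_at kept its early call over 20 arrays, at 1.79 (adjusted p = 0.0205), and 1383479_at was not called, at 1.02 (adjusted p = 0.109). Mbp encodes myelin basic protein, which joins the cytoplasmic faces of the membrane. It lay between 7.36 and 9.54 at P3 with a median of 7.76, at 10.77, 11.19, 11.34 and 10.77 at P8, and at 11.42, 11.40, 11.44, 11.32 and 10.77 at P21. The P3 arrays were all below the others, and the P8 and P21 arrays overlapped. Mbp rose by 2.92 ± 0.36 from P3 to P8, or 7.54-fold (adjusted p = 0.000195), and stood 0.25 ± 0.37 higher at P21 than at P8 (adjusted p = 0.695). At the end of the span it was 8.99-fold higher at P21 than at P3 (adjusted p = 4.11e-06).

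Mobp, which encodes another small basic protein of the same face, behaved in a like way with larger differences. It lay between 3.69 and 7.08 at P3 with a median of 5.06, at 9.23, 10.27, 9.64 and 8.87 at P8, and at 10.02, 10.41, 10.26, 10.47 and 9.96 at P21. P3 replicate 2 was the highest P3 array at 7.08, and still below every P8 array. Mobp rose by 4.37 ± 0.49 from P3 to P8 (adjusted p = 0.000125), the third largest rise among all probe sets tested, and stood 0.72 ± 0.51 higher at P21 than at P8 (adjusted p = 0.371). Its difference between P21 and P3 was 5.09 ± 0.46 (adjusted p = 9.48e-07).

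Mag and Mog, which encode adhesion proteins of the myelin surfaces, both rose by P8, and whether their later changes differ was not tested. Mag encodes the sialic acid binding protein of the layer next to the axon. It lay between 5.69 and 6.43 at P3 with a median of 5.89, at 8.11, 8.59, 8.26 and 7.60 at P8, and at 7.99, 8.86, 8.44, 8.69 and 8.16 at P21. P8 and P21 overlapped, and both lay clear of P3. Mag rose by 2.16 ± 0.23 from P3 to P8 (adjusted p = 7.6e-05) and stood 0.29 ± 0.24 higher at P21 than at P8 (adjusted p = 0.444). With the GAPDH control difference as a covariate that later value turned to -0.01.

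Mog encodes an immunoglobulin domain protein of the outermost myelin surface. It lay between 3.54 and 4.16 at P3 with a median of 4.00, at 7.22, 8.14, 6.62 and 6.04 at P8, and at 7.31, 8.76, 7.78, 8.51 and 8.19 at P21. The P3 arrays were the tightest group of this probe set, near the filter level, and P8 replicate 2 overlapped with P21. Mog rose by 3.06 ± 0.35 from P3 to P8 (adjusted p = 0.000133) and by 1.11 ± 0.36 from P8 to P21 (adjusted p = 0.0494). The later call was at the threshold: leaving out any of 13 of the 15 arrays ended it, and without P8 replicate 4 the difference was 0.79 (adjusted p = 0.135). With the GAPDH covariate it was 0.87 (adjusted p = 0.205).

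Cnp encodes a cyclic nucleotide phosphodiesterase of the cytoplasm-filled, non-compact parts of myelin. It lay between 8.71 and 9.43 at P3 with a median of 8.91, at 9.96, 10.64, 10.50 and 10.22 at P8, and at 10.15, 10.65, 10.32, 10.68 and 10 at P21. The P8 and P21 arrays covered almost the same range. Cnp rose by 1.32 ± 0.20 from P3 to P8 (adjusted p = 0.000913), the second smallest early change among the 9 genes, and stood at 0.03 ± 0.21 for P21 against P8 (adjusted p = 0.947). That late difference had either sign among the leave-one-out fits, from -0.10 to 0.13.

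Mal, Ermn and Plekhb1 rose after P8. Mal encodes a proteolipid of membrane rafts that takes part in the sorting of myelin components. It lay between 3.26 and 4.37 at P3 with a median of 3.56, at 5.35, 6.93, 5.79 and 4.83 at P8, and at 7.01, 8.62, 7.35, 7.73 and 7.82 at P21. The 3 ages did not overlap. Mal rose by 2.03 ± 0.38 from P3 to P8 (adjusted p = 0.00364) and by 1.98 ± 0.40 from P8 to P21 (adjusted p = 0.00364).

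Ermn encodes ermin, an actin-binding protein of late oligodendrocytes. It lay between 0.49 and 4.00 at P3 with a median of 2.12, at 5.19, 6.64, 6.15 and 4.63 at P8, and at 7.43, 9.02, 8.18, 8.68 and 9.22 at P21. Here too the ages did not overlap. Ermn rose by 3.73 ± 0.61 from P3 to P8 (adjusted p = 0.00166) and by 2.86 ± 0.64 from P8 to P21 (adjusted p = 0.00698). Its 6.58 ± 0.58 between P21 and P3 (adjusted p = 7.02e-07) was the second largest rise of all probe sets tested, but P3 intensities near the floor make it depend on the pseudocount: with 16 in place of 1 it was 4.26, and the early change was 1.75 in place of 3.73. With the GAPDH covariate the later rise was 2.41 (adjusted p = 0.0517).

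Opalin encodes a membrane glycoprotein of mature oligodendrocytes. It lay between 0.85 and 2.83 at P3 with a median of 1.06, at 5.10, 6.47, 5.99 and 3.41 at P8, and at 5.78, 7.29, 6.71, 7.20 and 7.27 at P21. P8 replicate 4 was the lowest P8 array and the only one near the highest P3 value. Opalin rose by 3.69 ± 0.57 from P3 to P8 (adjusted p = 0.00101) and stood 1.61 ± 0.59 higher at P21 than at P8 (adjusted p = 0.077). With a pseudocount of 16 the early change was 1.62 and the change over the whole span 2.84 in place of 5.30, while the later change was called (1.22, adjusted p = 0.017). Without P8 replicate 2 the later change was 2.02 and was called (adjusted p = 0.0407), and without P8 replicate 4 it was 1.00 (adjusted p = 0.207).

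Plekhb1, which encodes a pleckstrin homology domain protein that binds membranes, was the 1 gene of the 9 without a called early change. Whether its early change differs from theirs was not tested. Plekhb1 lay between 5.18 and 6.25 at P3 with a median of 5.88, at 5.97, 6.90, 7.23 and 6.03 at P8, and at 7.53, 7.99, 8.24, 8.72 and 8.47 at P21. P8 replicates 1 and 4 fell inside the P3 range, and all P21 arrays lay above both earlier ages. It stood 0.71 ± 0.29 higher at P8 than at P3 (adjusted p = 0.118) and rose by 1.66 ± 0.31 from P8 to P21 (adjusted p = 0.00206).

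How much of the whole change had been reached by P8 was taken for the leading probe sets, with P8 replicates 1 to 4. Whether the genes differ in this was not tested. As a share of the log2 difference between P21 and P3, the P8 mean stood at 98.0% for Cnp, 92.0% for Mbp, 88.2% for Mag and 85.9% for Mobp. It stood at 73.4% for Mog, 69.6% for Opalin, 56.6% for Ermn, 50.6% for Mal and 30.0% for Plekhb1. The shares of dim genes depend on the pseudocount: with 16 they were 57.1% for Opalin, 41.1% for Ermn and 43.4% for Mal. With all 20 arrays the early change was 1.36 of 3.17 for Mbp and 0.69 of 1.35 for Cnp. Other probe sets stood at 61.8% and 73.1% for Mbp, 74.0% and 73.6% for Mobp, and 36.4% for Ermn. The other Cnp probe set stood at 139.0%, with neither of its changes from P3 called. The difference of the 2 intervals was itself tested, as the change from P3 to P8 minus the change from P8 to P21, intervals of unequal length in days. It was called positive for Mobp at 3.65 ± 0.89, Mbp at 2.66 ± 0.65 and Mag at 1.87 ± 0.41 (adjusted p = 0.0325, 0.0325 and 0.0212), 3 of 9 leading probe sets where 2.24% of all were called positive and 2.14% negative.

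For Cnp, Mog and Opalin this difference was 1.29 ± 0.36, 1.95 ± 0.63 and 2.08 ± 1.03 (adjusted p = 0.056, 0.0901 and 0.255). For Mal, Ermn and Plekhb1 it was 0.05 ± 0.70, 0.87 ± 1.11 and -0.95 ± 0.53 (adjusted p = 0.974, 0.696 and 0.322), which does not show equal intervals. With a pseudocount of 16 it was 0.41 for Opalin, -0.39 for Mal and -0.75 for Ermn. The 3 calls were not stable. With every array kept, array weights ended all 3 (adjusted p = 0.171 for Mbp, 0.213 for Mobp and 0.0965 for Mag), and without the filter that of Mbp ended (adjusted p = 0.0502). Leaving out P8 replicate 2 ended all 3 (adjusted p = 0.0928 for Mbp, 0.111 for Mobp and 0.0803 for Mag), and so did leaving out P8 replicate 3 (adjusted p = 0.108, 0.0944 and 0.0689). Those of Mbp and Mobp also ended without P3 replicate 5 (adjusted p = 0.0525 and 0.0528) and without P3 replicate 6 (adjusted p = 0.0512 and 0.0514). Other calls were gained. Cnp was called with a filter at log2 6, a pseudocount of 16 and the GAPDH covariate (adjusted p = 0.031, 0.0342 and 0.0384). It was also called with 1 probe set a gene and a trended robust variance (adjusted p = 0.0455 and 0.0282). Without P8 replicate 4, Mog and Opalin were called (adjusted p = 0.0231 and 0.0441).

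**Figure D2:**
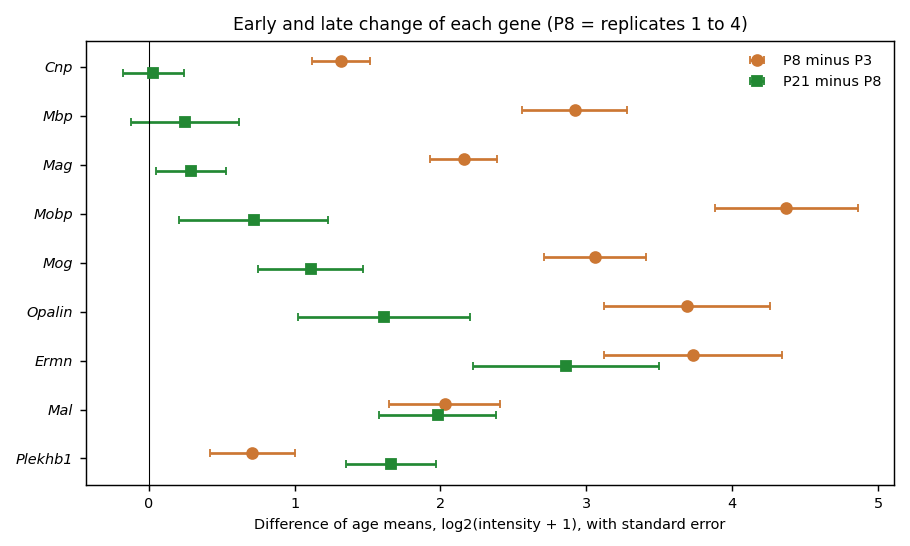
Change from P3 to P8 (circles) and from P8 to P21 (squares) of the leading probe set of each gene, in log2(intensity + 1) with standard errors, over 15 arrays; genes run down the page by the share of their change reached by P8. For Cnp, Mbp and Mag the later change lies near 0, for Mal both changes are near 2, and for Plekhb1 the later change is the larger one; with a pseudocount of 16 it is larger for Mal and Ermn too, and with all 20 arrays for Mbp, Mal and Ermn.

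P8 replicates 5 to 9 gave a different picture of P8 for some of the genes, here by their leading probe sets unless others are named. Mbp was at 7.99, 7.62, 7.82, 8.57 and 9.11 on them, inside the P3 range, and Cnp at 9.47, 8.77, 9.09, 9.26 and 9.40, also overlapping with P3. In the leading probe sets of Mbp and Cnp all 5 arrays lay below all of P8 replicates 1 to 4, as 14.1% of all probe sets did. Their mean differences were -2.80 and -1.14. The other probe sets did not share this, with mean differences of 0.16 and 0.34 for Mbp and 0.28 for Cnp. Mobp was at 9.45, 7.07, 7.51, 8.58 and 10.30 and overlapped with P8 replicates 1 to 4. Its probe set 1370434_a_at lay below those 4 arrays on all 5, with a mean difference of -3.13. Its probe set 1370500_a_at overlapped with them, at a mean difference of -1.34. Ermn was at 3.43, 1.49, 1.43, 3.42 and 4.67, with 4 arrays below all of P8 replicates 1 to 4.

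By the means of their leading probe sets Mag, Mog, Opalin and Mal were closer to P8 replicates 1 to 4 than to P3, and so was Mobp. Mag was at 8.19, 6.81, 7.36, 8.43 and 8.13, Mog at 7.53, 4.95, 6.57, 5.08 and 7.78, and Opalin at 4.29, 6.11, 6.23, 4.04 and 3.12. In these 3 genes all 5 arrays lay above all P3 arrays, as 25.4% of all probe sets did. Mal was at 5.22, 3.63, 5.29, 6.72 and 4.52 and Plekhb1 at 6.20, 6.19, 4.69, 6.55 and 5.92. Both overlapped with P3, and the Plekhb1 mean of 5.91 was nearer to 5.82 at P3 than to 6.53 in P8 replicates 1 to 4. On these arrays the mean of the microglial markers was 5.56 to 6.77, against 4.07 to 5.23 in P8 replicates 1 to 4. That of precursor markers was 6.58 to 7.48, against 5.85 to 6.35. The mean of the 9 genes was 5.85 to 6.99, against 6.93 to 8.42, and that of other myelin genes 5.74 to 6.30, against 6.50 to 6.92. That of myelin lipid genes was 5.85 to 6.54, against 5.82 to 6.51. That of peripheral myelin genes was 5.63 to 7.53, against 5.09 to 5.85, and that of astrocyte genes 7.92 to 8.51, against 7.97 to 8.68. The array median of intensity over all probe sets was higher on them too, at 58.9 to 67.5 against 23.8 to 31.2. The bushy cell mean was 7.14 to 7.81, against 8.15 to 9.73, so it was lower on them. The GAPDH 3' minus 5' difference averaged 2.20 ± 0.33 and that of actin 1.90 ± 0.72 (SD, n = 5), against 3.27 ± 0.42 and 4.30 ± 0.19 in replicates 1 to 4 (SD, n = 4). The part of cell content, array-wide intensity, RNA length or the arrays' handling in these differences was not tested.

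All 9 P8 arrays were also put in the fit, with the leading probe set of each gene. The early change of Mbp was then 1.36 (adjusted p = 0.0761) and that of Cnp 0.69 (adjusted p = 0.0713), so that both calls ended. The late changes of Mbp at 1.81 and Opalin at 1.88 were called (adjusted p = 0.0464 and 0.0296). The early calls of Mobp, Mal, Mog, Mag, Opalin and Ermn and the calls of all 9 genes between P21 and P3 also passed over 20 arrays, where 18.1% of probe sets were called higher for P8 and 4.96% for P21 against P3. The positive difference of intervals held there for Mobp and Mag, at 2.63 and 1.48 (adjusted p = 0.0283 and 0.024), and for Mbp it was -0.45 (adjusted p = 0.738). For Plekhb1 it was called negative, at -1.64 (adjusted p = 0.0291), and 22.9% of all probe sets were called positive and 10.8% negative in that fit.

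Several probe sets measure Mbp, Mobp, Ermn and Cnp, and they differed among themselves. The 3 Mobp probe sets all rose from P3 to P8 and were higher at P21 than at P3. The one named 1370434_a_at lay between 0.77 and 3.96 at P3, at 8.18, 9.04, 8.80 and 7.03 at P8 and between 9.86 and 10.79 at P21. No P3 array of it was above log2 4, and its difference of 8.18 ± 0.56 between P21 and P3 (adjusted p = 9.18e-08) was 6.01 with a pseudocount of 16. It rose after P8 as well (2.13 ± 0.62, adjusted p = 0.0301), where 1370500_a_at stood at 0.91 ± 0.44 (adjusted p = 0.179) and the leading probe set at 0.72 ± 0.51, and these were not tested against each other. Of the other Mbp probe sets, 1387341_a_at rose by 1.60 ± 0.27 by P8 (adjusted p = 0.00208, and 0.0205 over 20 arrays). The probe set 1383479_at stood at 0.93 ± 0.53 (adjusted p = 0.255) and was called only between P21 and P3, at 1.5 ± 0.50 (adjusted p = 0.027, and 0.0915 over 20 arrays).

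For Ermn, 1385547_at rose by 2.96 ± 0.64 after P8 (adjusted p = 0.00584) and stood at 1.69 ± 0.62 before it (adjusted p = 0.0783). The remaining Ermn probe set, 1395447_at, was between 1.54 and 4.34 at P3 and between 3.50 and 4.00 at P21, and was too dim to be tested. The dimmer Cnp probe set, 1370693_a_at, was between 4.41 and 5.48 at P21 and between 4.03 and 5.45 at P3 and did not pass the test in any comparison (0.33 ± 0.27 for P21 against P3, adjusted p = 0.363). Its differences from P3 had the same sign as those of the other Cnp probe set and were smaller, a contrast that was not tested, and which transcripts each of the 2 detects was not analysed here.

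**Figure D3:**
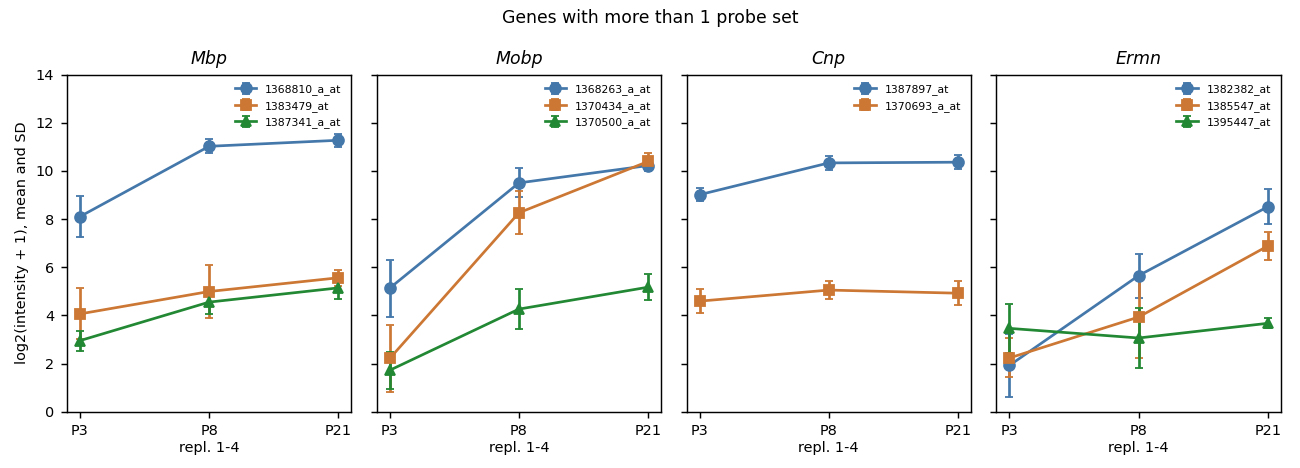
Mean and SD of each probe set, in log2(intensity + 1), for the 4 genes with more than 1, over 6 arrays at P3, 4 at P8 (replicates 1 to 4) and 5 at P21. All 3 Mobp lines climb, the Cnp probe set 1370693_a_at stays between 4.59 and 5.05 on average, and the Ermn probe set 1395447_at stays below 4 on average.

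Arrays of the same age differed in how often they held the highest or lowest level of a gene. P8 replicate 2 had the highest level of its 4 arrays in 7 of the 9 genes and P8 replicate 4 the lowest in 6, with members' mean levels of 8.42 and 6.93. Among P21 arrays replicate 1 was lowest in 6 of 9 genes, with a mean level of 8.29, against 9.22 for P21 replicate 2, the highest in 4. P21 replicate 5 was lowest in 3 genes and highest in 1. At P3, replicate 3 was highest in 5 genes but lowest in 1, and replicate 2 was highest in 3, with mean levels of 5.46 and 5.54, against 4.59 to 4.96 on the other 4 arrays. In the set of P8 replicates 5 to 9, replicate 6 was lowest in 6 of 9, and replicate 9 was highest in 4 and lowest in 1. How often single arrays lead in this way among all probe sets was not analysed here.

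The bushy cell markers did not follow this order. Their mean level on P8 replicate 4, which was low in myelin genes, was 9.73, the highest at P8, and on P8 replicate 2 it was 8.15, the lowest. The GAPDH 3' minus 5' difference was 3.05 on P8 replicate 2 and 2.91 on P8 replicate 4. At P21 it was 3.31 on replicate 1 and 4.71 on replicate 2, the array with the highest mean of the myelin genes.

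**Figure D4:**
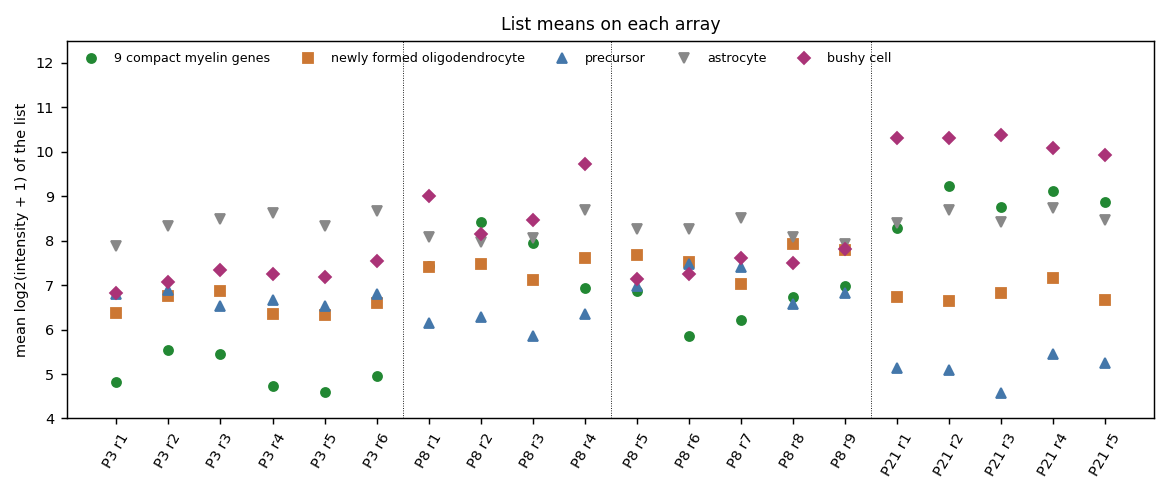
Mean level of the 9 myelin genes and of 4 lists of cell type markers on each array, in log2(intensity + 1), with dotted lines between P3, P8 replicates 1 to 4, P8 replicates 5 to 9 and P21. The myelin genes are at 4.59 to 5.54 at P3 and 8.29 to 9.22 at P21, while the precursor mean is 6.52 to 6.89 at P3 and 4.58 to 5.46 at P21 and the astrocyte mean stays between 7.89 and 8.74.

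Other genes of mature oligodendrocytes and myelin moved mostly the same way. Of 38 tested genes in a list of such genes without the 9, 31 rose and 1 fell over the span to P21, with a median change of 1.40, against 18.6% of all probe sets called higher and 18.4% lower. By P8, 18 of them had risen and 1 had fallen, where 6.98% of all probe sets rose and 7.8% fell. After P8 13 rose and 0 fell, where 7.98% of all rose and 8% fell. Cldn11, which encodes the tight junction protein of the myelin sheath, rose by 3.03 ± 0.45 by P8 (adjusted p = 0.000893) and stood at 0.22 ± 0.47 thereafter (adjusted p = 0.804). S1pr5, a lipid receptor gene of oligodendrocytes, rose by 3.07 ± 0.42 and then by 2.03 ± 0.44 (adjusted p = 0.000449 and 0.0057). The deubiquitinase gene Josd2, the septin gene Septin4 and the phosphatase inhibitor gene Ppp1r14a were higher at P21 than at P3 by 4.98 ± 0.24, 3.35 ± 0.17 and 4.45 ± 0.35 (highest adjusted p = 2.63e-07). No P3 array was above log2 4 for Josd2, Ppp1r14a and S1pr5, and with a pseudocount of 16 their differences between P21 and P3 were 2.81, 1.47 and 2.60. Il33, which encodes a nuclear cytokine, was the 1 gene that fell, by 2.01 (adjusted p = 0.00795), and is named after its value was seen.

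Genes for the lipids of myelin rose in part. Of 11 tested, 8 rose and 0 fell over the span to P21, with a median of 1.55. This count and those of the lists below over the same span stand against 18.6% of all probe sets called higher and 18.4% lower. Gal3st1, whose enzyme makes sulfatide, rose by 2.16 ± 0.22 by P8 (adjusted p = 6.18e-05), and its difference of intervals was called (1.67 ± 0.40, adjusted p = 0.0307). Ugt8, the galactosyltransferase gene of galactocerebroside synthesis, rose by 1.52 ± 0.38 by P8 (adjusted p = 0.0157). Fa2h, the fatty acid hydroxylase gene, rose by 1.00 ± 0.29 before P8 and 1.15 ± 0.30 after it (adjusted p = 0.0296 and 0.0162). The acid sphingomyelinase gene Smpd1 was higher at P21 than at P3 by 1.55 ± 0.15 (adjusted p = 2.04e-06).

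Earlier stages of the oligodendrocyte lineage went another way. Of 9 precursor genes, 8 fell and 1 rose over the span to P21, with a median of -1.72. Pdgfra, the growth factor receptor gene that marks precursors, averaged 6.64 ± 0.95 at P21 (SD, n = 5), against 8.15 ± 0.28 at P3 (SD, n = 6; adjusted p = 0.00325), and it fell by 1.47 ± 0.38 after P8 (adjusted p = 0.0173). The proteoglycan genes Cspg5, Cspg4 and Vcan fell by 3.02, 2.34 and 2.03 over the whole span (highest adjusted p = 0.00191), and the receptor phosphatase gene Ptprz1 fell by 1.72 (adjusted p = 0.0001). Cacng4 was the 1 gene that rose, by 0.66 (adjusted p = 0.0199), and is named after its value was seen. Some of these genes are also expressed by neurons and astrocytes.

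Of 9 genes of newly formed oligodendrocytes, 4 rose and 0 fell by P8, and 0 rose and 4 fell after it, where 6.98% of all probe sets rose and 7.8% fell by P8 and 7.98% rose and 8% fell after it. Enpp6, a choline phosphodiesterase gene of this stage, rose by 3.52 ± 0.70 by P8 (adjusted p = 0.00505; 1.87 with a pseudocount of 16) and stood at -0.47 ± 0.73 for P21 against P8 (adjusted p = 0.713). Bcas1, a marker of oligodendrocytes that begin to myelinate, rose by 1.17 ± 0.17 by P8 (adjusted p = 0.000646) and stood at -0.10 ± 0.18 after it (adjusted p = 0.743), and its difference of intervals was called (1.27 ± 0.31, adjusted p = 0.0316). The kinase gene Fyn and the small GTPase gene Rras2 fell after P8, by 1.81 ± 0.17 and 1.05 ± 0.28 (adjusted p = 8.61e-06 and 0.0188), while Kndc1 was higher at P21 than at P3 by 1.89 ± 0.24 (adjusted p = 2.62e-05).

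The transcription factors were split. Of 8 tested, 3 rose and 3 fell over the span to P21. Sox10 averaged 6.51 ± 0.38 at P8 (SD, n = 4), against 5.51 ± 0.59 at P3 (SD, n = 6), a rise of 1.00 ± 0.30 (adjusted p = 0.036). Myrf, counted with the myelin genes, rose by 1.49 ± 0.25 by P8 (adjusted p = 0.00201), and for P21 against P8 it stood at -0.17 ± 0.26 (adjusted p = 0.711). Olig1 fell in both intervals, by 1.11 ± 0.19 and 0.79 ± 0.20 (adjusted p = 0.00196 and 0.013). Tcf7l2, a factor of the step into differentiation, fell by 2.11 ± 0.32 after P8 (adjusted p = 0.000522), and its difference of intervals was called (2.65 ± 0.56, adjusted p = 0.0181). Zeb2 was higher at P21 than at P3 by 1.10 ± 0.33 (adjusted p = 0.0164).

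**Figure D5:**
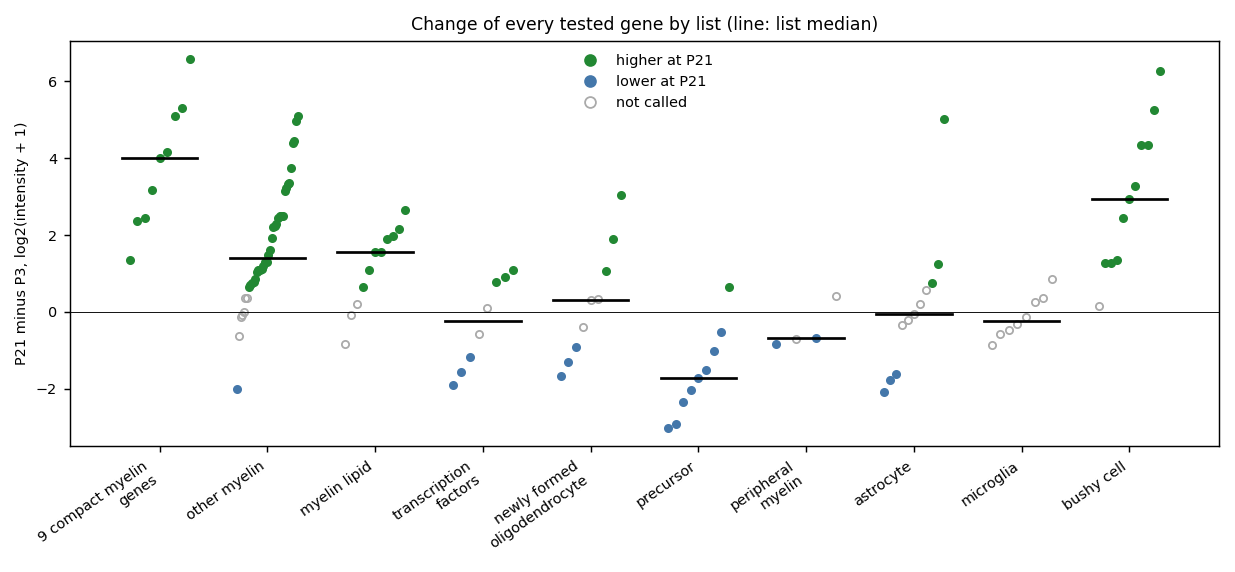
Change of each tested gene between P21 and P3, in log2(intensity + 1) over 15 arrays, by list; points are genes by their leading probe set, filled where called, and the bar is the median. All 9 myelin genes lie above 1, 31 of 38 other myelin genes were called higher, and 8 of 9 precursor genes were called lower.

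Markers of other cells were followed beside these lists. Of 4 tested genes of peripheral myelin, 0 rose and 2 fell over the span to P21, Drp2 by 0.83 and Prx by 0.67 (adjusted p = 0.00468 and 0.026). Egr2 stood at -0.70 (adjusted p = 0.235) and Pmp22 at 0.41 ± 0.22 (adjusted p = 0.161). Of 11 astrocyte genes, 3 were higher and 3 lower. Gjb6, a gap junction gene, rose by 5.03 ± 0.44 (adjusted p = 6.49e-07), while the glutamate transporter gene Slc1a3 and the folate enzyme gene Aldh1l1 fell by 2.08 ± 0.21 and 1.62 ± 0.28 (adjusted p = 2.69e-06 and 0.000408). The bicarbonate transporter gene Slc4a4 fell by 1.76 (adjusted p = 6.83e-05). The 8 tested microglial genes had a median of -0.23, and Csf1r, P2ry12, C1qa and C1qc, the 4 with the smallest p, stood at 0.37, 0.87, -0.32 and -0.87 (adjusted p = 0.206, 0.187, 0.257 and 0.0783). Of the 11 bushy cell genes 10 were higher at P21, among them the channel genes Kcna1 and Scn4b by 4.34 ± 0.27 and 5.26 ± 0.25 (adjusted p = 3.93e-08 and 3.79e-09). The channel gene Kcnc1 and the vesicle SNARE gene Vamp1 rose by 3.27 and 2.44 (adjusted p = 3.62e-08 and 2.88e-07). The part of any of these shifts in the levels of the myelin genes was not tested.

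Outside the 9 genes, the profile nearest to theirs was that of Lgi3. Each gene's leading probe set was centred on its own mean over the 15 arrays and set against the average centred profile of the 9, which was at -1.99, 0.68 and 1.84 for P3, P8 and P21. The root mean square difference was 0.41 for Lgi3, which encodes a secreted leucine-rich repeat protein, and 0.411 for Pllp, which encodes the myelin protein plasmolipin, against a median of 1.775 over 11825 genes. Lgi3 averaged 4.98 ± 0.38 at P3 (SD, n = 6), 7.37 ± 0.36 at P8 (SD, n = 4) and 8.73 ± 0.22 at P21 (SD, n = 5). Next came Cfap20dc at 0.488, Evi2a at 0.523, the apolipoprotein gene Apod at 0.567, Zbtb7a at 0.572, and Nat8l and Aifm3 at 0.589 each. Pllp, Evi2a and Apod were already in the list of other myelin genes. Of the 9 genes themselves Mog lay nearest to their average, at 0.383, and Ermn farthest, at 1.343.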

How the data were processed

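Expression was measured with 20 Affymetrix arrays, 1 per rat. The authors deposited linear intensities, a single value for each probe set on each array. Per the submitters' processing notes GCRMA was used, but GCRMA gives log2 values, and what made these linear intensities is not stated in the sources at hand. The mean intensity without the lowest and highest 2% was 100.0 on every array, so nothing further was normalized. The deposited intensities were turned into log2(intensity + 1), which understates changes of dim genes.

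Of 31099 probe sets 57 were controls, 20826 had 1 annotated gene, 436 had several and 9780 are unnamed here. For 20758 probe sets the symbol was taken through the Entrez identifier, whether or not that changed it. Probe sets above log2 4 in at least 5 of 15 arrays were tested with limma 3.58.1, run in R 4.3.3 with 3 ages in 1 linear model and eBayes moderation,, with Benjamini-Hochberg adjustment over all of them. Every adjusted p in the text is from limma. Precision is limited by how many arrays there are. Samples are labelled biological replicates, but no litter or date is named.

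The members and the lists were chosen with earlier results of these data known. All 9 genes are named, with, from each other list, the 4 genes with the smallest p for P21 against P3, some always named (Sox10, Myrf, Enpp6, Pdgfra, Ugt8, Cldn11) and the 8 genes of most like profile. The fit was tested on simulated data for P21 against P3, with 50 probe sets changed at each size. It called 7 of 50 at 1.5-fold, 17 at 2-fold, 39 at 4-fold and 47 at 8-fold, and 8 of 21605 unchanged ones. A change that was not called is thus not shown to be absent. Far fewer probe sets changed there than the 8068 called for P21 against P3 in the data. The adjustment depends on how many change, so these rates are not those of the data.

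Alternatives were no filter, a filter at log2 6, quantile normalization, subtraction of array medians, a pseudocount of 16, all 20 arrays, 1 probe set a gene, a trended robust variance, array weights, the GAPDH covariate, the replicate number as a block, and each array left out.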

Additional observations from a re-analysis of the deposited data

Results flagged for a closer look

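Of 64 groups of arrays checked, 4 held an array far from the others, and chance gives about 1 in 20. The leading Mbp probe set, 1368810_a_at, was at 10.77 in P21 replicate 5, and the nearest other P21 array was at 11.32. The Mbp probe set 1383479_at was at 6.14 in P21 replicate 1, with the nearest other P21 array at 5.53. In P8 replicate 6, within P8 replicates 5 to 9, the Mobp probe sets 1370434_a_at and 1370500_a_at were at 1.68 and 1.49, with the nearest other arrays at 5.37 and 3.10. The leading Mobp probe set was lowest in that array as well, at 7.07.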

How the results depend on the processing

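Of 936 values of the 9 genes under alternatives, 864 kept their direction and side of the threshold, 37 lost a call, 16 gained one and 19 changed sign. Over 15 arrays 3222, 3485, 8068 and 955 probe sets were called for P8 against P3, P21 against P8, P21 against P3 and the difference of intervals. Of the 15 member probe sets tested, 11, 6, 14 and 3 were called higher or, for the difference of intervals, positive. The shares over all probe sets were 6.98%, 7.98%, 18.6% and 2.24%. Members are counted below as probe sets. With all 20 arrays the counts over all probe sets were 6844 for P8 against P3, 2801 for P21 against P3 and 8455 for the difference of intervals. With 1 probe set a gene, where fewer are tested, they were 2050, 5099 and 625, and the members called for P21 against P3 were 9, 1 for each gene. The GAPDH covariate gave 4419 for P21 against P3 and left 3 of the 15 member probe sets called for P21 against P8, where the main fit called 6. For the difference of intervals no filter gave 631, and array weights 365 with 0 members; a filter at log2 6 and the trended robust variance each gave 5 members. Array weights gave an adjusted p of 0.171 for Mbp, 0.213 for Mobp and 0.0965 for Mag there.

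Leaving out each array gave 2280 to 3297 probe sets for P8 against P3, 2796 to 3779 for P21 against P8, 7199 to 8891 for P21 against P3 and 347 to 1649 for the difference of intervals. The member probe sets called higher or positive were 11 to 12, 4 to 7, 13 to 14 and 0 to 6. The most and fewest for the difference of intervals came without P8 replicate 4 and without P8 replicate 3.

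Some signs turned. For P21 against P8, Mag was -0.013 with the GAPDH covariate, and Cnp was -0.0557 with median subtraction, -0.18 with that covariate and -0.10 to 0.13 without single arrays. For the difference of intervals, Mbp, called at 2.66 over 15 arrays, was -0.45 with 20 arrays, Mal was -0.39 with a pseudocount of 16, -0.67 with 20 arrays, -0.64 with array weights and -0.75 to 0.65 without single arrays, and Ermn was -0.75 with a pseudocount of 16 and -2.20 with 20 arrays. Median subtraction moved the median difference of intervals over all probe sets to 0.104, against -0.065. The cause of these changes was not tested.

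The replicate number as a block gave 1613 probe sets for P8 against P3 and 160 with 0 members for the difference of intervals (adjusted p = 0.0776, 0.0776 and 0.0612 for Mbp, Mobp and Mag). The numbers did not pair the samples: over 13 pairs of equal number the correlation of deviations was -0.06 to 0.08. Signal near background limits the P3 levels of Opalin, Ermn and the Mobp probe set 1370434_a_at, whose differences depend on the pseudocount.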
